A study of Mus musculus with 18 samples.

Results

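The mitochondrial chaperones and proteases considered here are 10 nuclear genes, taken by symbol from the tables of 3 mouse lines. All 10 were found among the 23416 genes that the tables hold, and all 10 passed the filter on low values in every line. Hspd1, Hspe1, Hspa9, Dnaja3 and Trap1 encode chaperones of the mitochondrial matrix. Lonp1, Clpp, Clpx, Afg3l2 and Yme1l1 encode proteases of the matrix and inner membrane or their partner subunit.

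RNA-seq was performed on whole embryonic lungs collected at 14.5 dpc (days post coitus), with 3 samples in each of 6 groups. Rptor f/f; ShhCre/+ lungs, Tfam f/f; ShhCre/+ lungs and Cox10 f/f; ShhCre/+ lungs were each set against controls of the same line that were f/+ for the floxed gene and also ShhCre/+. All 18 lungs therefore carried a ShhCre allele and at least 1 floxed allele of the gene of their line. Cre was made from the Shh locus, which is active in the lung epithelium, while RNA came from all cells of the lung.

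Rptor encodes Raptor, a subunit of mTORC1, the kinase complex that couples nutrient supply to growth. Tfam packages and transcribes mitochondrial DNA, and Cox10 makes the heme of cytochrome c oxidase. Most mitochondrial proteins are made in the cytosol and are imported unfolded. In the matrix, Hspa9 with its J-protein partner Dnaja3 binds the incoming chain, and the chamber formed by Hspd1 and its lid Hspe1 folds it. The proteases Lonp1 and ClpXP in the matrix, and Afg3l2 and Yme1l1 in the inner membrane, degrade proteins that do not fold or assemble. The mitochondrial unfolded protein response is a rise in the transcripts of such chaperones and proteases when the organelle is under stress. In mammals it has been tied to the transcription factors Atf4, Atf5 and Ddit3, which also act in the integrated stress response. Whether the members rose after each deletion is the question that the comparisons below address.

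Hspd1 and Hspe1 lie head to head on mouse chromosome 1. In the GENCODE M21 annotation of GRCm38, the build named for these data as mm10, Hspd1 spans chr1:55077835-55088243 on the minus strand and Hspe1 spans chr1:55088132-55091307 on the plus strand. The gene models overlap by 112 bases, and reads from that overlap cannot be assigned with certainty because the strand setting of the counting is not given. The annotation also names 5 pseudogene copies of Hspd1 and 6 of Hspe1, with which reads could be shared. The promoter windows below were taken from RefSeq (GRCm38.p6) and run from 250 bases before to 50 bases after a transcript start. There were 9 such windows for 8 of the 10 members. Hspa9 and Afg3l2 had no window and were not searched. The Hspe1 window is shown because it holds the starts of both chaperonin genes, 216 bases apart, at 55088148 for Hspe1 and at 55087932 for a start of Hspd1. The Dnaja3 window is shown as that of another chaperone that changed, and the Clpp window as that of a protease that did not pass the test but carries a heat shock motif. Capitals mark the motif matches.
Hspe1, chr1:55087898-55088197, plus strand: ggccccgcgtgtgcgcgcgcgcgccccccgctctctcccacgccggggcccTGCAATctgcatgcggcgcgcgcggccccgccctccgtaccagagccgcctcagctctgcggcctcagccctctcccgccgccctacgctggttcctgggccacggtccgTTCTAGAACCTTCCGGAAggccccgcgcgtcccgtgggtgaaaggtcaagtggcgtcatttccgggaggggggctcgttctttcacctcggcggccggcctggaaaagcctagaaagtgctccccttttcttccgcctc
Dnaja3, chr16:4683820-4684119, plus strand: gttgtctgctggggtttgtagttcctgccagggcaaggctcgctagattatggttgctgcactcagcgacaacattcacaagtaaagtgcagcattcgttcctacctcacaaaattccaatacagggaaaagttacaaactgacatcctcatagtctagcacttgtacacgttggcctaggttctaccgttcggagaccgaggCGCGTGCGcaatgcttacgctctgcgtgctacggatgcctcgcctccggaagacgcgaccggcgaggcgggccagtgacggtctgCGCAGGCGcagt
Clpp, chr17:56990014-56990313, plus strand: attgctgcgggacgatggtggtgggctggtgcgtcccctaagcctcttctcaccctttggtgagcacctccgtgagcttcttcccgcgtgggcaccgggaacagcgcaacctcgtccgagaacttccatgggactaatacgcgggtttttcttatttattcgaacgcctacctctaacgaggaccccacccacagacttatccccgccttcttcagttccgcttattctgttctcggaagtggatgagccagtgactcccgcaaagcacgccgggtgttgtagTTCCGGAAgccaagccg

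Both strands of each window were searched for 6 motifs. The heat shock element was searched as GAANNTTC and TTCNNGAA, which can overlap each other. GAANNTTC was held by 7.86% of all 32851 windows of the same length and TTCNNGAA by 8.52%. The Hspe1 window held a run of 18 bases, from -89 to -72 relative to the Hspe1 start, in which TTCNNGAA matched at -89 and -79 and GAANNTTC matched at -84. This run lies between the starts of Hspe1 and of Hspd1. The Clpp window held a single TTCNNGAA match at 33 bases after its start. No other window outside the Hspd1 and Hspe1 region held either form.

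The letters TGCAAT, listed as a site of the protein made from Ddit3, were present in the Hspe1 window at -199 and in 8.4% of all windows. The NRF1 core CGCANGCG, held by 8.21% of windows, matched at -47 and 38 in the Dnaja3 window and at -87 and -45 in the Clpx window. The E-box CACGTG, held by 7.15% of windows, matched in the Lonp1 window at -36 and in the outer Hspd1 window at -80, a window that also had the NRF1 core at -58. The composite element TGATGNAA, held by 3.97% of windows, matched in none of the 9 windows of members. The Yme1l1 and Trap1 windows held none of the 6 motifs. A match is a description of letters and does not show binding.

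After the authors' scaling, the normalised read counts of a lung summed to between 27725300 and 29608800, with 17667 to 17907 genes above 0. Replicates of a group correlated at r = 0.991 to 0.995 across genes on a log2 scale. None of the targeted genes passed the limma test in its own line, at log2 fold changes of -0.066 for Rptor (adjusted p = 0.570), -0.12 for Tfam (adjusted p = 0.472) and -0.0055 for Cox10 (adjusted p = 0.979), and for each of them the groups overlapped. Counts over the whole gene cannot show the loss of floxed exons, so the labels have no check from these values.

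Markers of lung cell types moved with genotype. Of 10 epithelial markers, 9 passed the test as lower in Rptor-deficient lungs, 4 in Tfam-deficient lungs and 1 in Cox10-deficient lungs. Of all genes, 34.8%, 4.66% and 0.475% passed in either direction by limma in these lines, so the counts do not rank the falls. The median log2 fold change of the 10 markers was -1.05, -0.29 and -0.44. In the Tfam and Cox10 lines alike 8 of them had an unadjusted p below 0.05, against 17.4% and 13.0% of all genes. The summed level of the 10 markers was 40148 to 46432 normalised reads in Rptor controls and 15168 to 21989 in Rptor-deficient lungs. It was 36718 to 38708 against 27817 to 32396 in the Tfam line, and 25638 to 26039 against 16958 to 25711 in the Cox10 line. Mesenchymal markers summed to 184904 to 215783 in Rptor controls and 375729 to 406642 in Rptor-deficient lungs, and 5 of 8 passed as higher. Most of the sum was collagen, with means of 109355 for Col1a1, 101629 for Col1a2 and 147576 for Col3a1 in deficient lungs. Besides these, Pdgfra (log2 fold change 0.69) and Tcf21 (0.77) passed as higher. Tbx4 (-0.037), Foxf1 (0.12) and Twist1 (1.04) did not pass (limma adjusted p = 0.654, 0.110 and 0.0555). All 5 endothelial, all 4 macrophage and 2 of 3 mesothelial markers also passed as higher in Rptor-deficient lungs. Of 4 smooth muscle markers, 2 passed as lower and 1 as higher in the Rptor line and 3 passed as lower in the Tfam line, where their sum was 22267 to 25450 in controls and 17447 to 20686 in deficient lungs. No marker of these classes other than the epithelial and smooth muscle ones passed in the Tfam line, and only the 1 epithelial marker passed in the Cox10 line. None of the epithelial, mesenchymal, endothelial or macrophage markers was at 0 in all lungs of a group. In whole lungs, fewer cells of a type and less RNA per cell cannot be told apart.

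The levels of the members were compared with each other per kilobase of exon. In every group Hspd1 stood first and Afg3l2 last. In Rptor controls Hspd1 had 7180 ± 210 normalised reads per kilobase (SD, n = 3), followed by Hspa9 at 3325 ± 94.7 and Hspe1 at 3233 ± 211. These last values lay within each other's spread, and the genes changed places between groups. Trap1 at 1218 ± 49.1, Clpp at 1066 ± 88.1, Lonp1 at 914 ± 54.4 and Yme1l1 at 699 ± 18.6 held the next places, in that order, in all 6 groups. Dnaja3 at 478 ± 19.6 and Clpx at 437 ± 22.7 changed places between groups, and Afg3l2 had 273 ± 6.58. In each of the 6 groups the mean levels of Hspd1, Hspa9 and Hspe1 were above those of Trap1, Dnaja3 and the 5 proteases. Exon lengths are those of GENCODE M21 and may differ from the annotation behind the counts.

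In Rptor-deficient lungs, 4 of the 5 chaperones fell and no member rose. Relative to controls the change was -30.9% for Hspd1, -24.2% for Hspe1, -20.6% for Hspa9 and -18.2% for Dnaja3, while Trap1 and the 5 proteases did not pass the test. Across all 14937 genes tested in this line by limma, 18.2% passed as lower and 34.8% passed in either direction at an adjusted p below 0.05. The members' share of 4 in 10 as lower stands beside that broad background. The median log2 fold change was -0.33 over the 5 chaperones and -0.037 over the 5 proteases, against 0.0082 over all genes. Over all 10 members it was -0.099. All of these changes were recorded while the epithelial marker sum was lower and the mesenchymal sum, mostly collagen reads, was higher, as given above. The part of that shift in the members' change was not tested.

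Hspd1 had 18678, 19610 and 18620 normalised reads in the 3 Rptor controls and 13048, 13176 and 13113 in the 3 deficient lungs. Every deficient lung was far below every control, and the deficient lungs lay within a narrow range. By limma the log2 fold change was -0.53 ± 0.048 (SE), with an adjusted p of 0.00019. Hspe1, the lid of the same chamber, had 5051, 4434 and 4809 normalised reads in controls and 3783, 3498 and 3548 in deficient lungs. All deficient values again lay below the controls, and limma gave a log2 fold change of -0.40 ± 0.063 (SE) with an adjusted p of 0.00212.

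Hspa9, the matrix Hsp70, had 13880, 14678 and 14428 normalised reads in Rptor controls and 11436, 11402 and 11296 in deficient lungs. The groups did not overlap, and limma gave a log2 fold change of -0.33 ± 0.048 (SE) with an adjusted p of 0.00138. Dnaja3, the J-protein that drives the Hspa9 cycle, had 1837, 1958 and 1816 normalised reads in controls and 1635, 1465 and 1491 in deficient lungs. The groups did not overlap here either, and limma gave a log2 fold change of -0.29 ± 0.066 (SE) with an adjusted p of 0.0101. In GENCODE M21 Dnaja3 also overlaps Coro7 and Vasn, so that shared reads are a limit for this gene.

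Trap1, the mitochondrial Hsp90, ran from 3021 to 3271 normalised reads in Rptor controls and from 2907 to 3032 in deficient lungs. The groups overlapped (log2 fold change -0.073, 95% interval -0.19 to 0.049, limma adjusted p = 0.321). Lonp1, the matrix AAA+ protease, ran from 3760 to 4236 in controls and from 3485 to 3943 in deficient lungs. Its log2 fold change was -0.10 (95% interval -0.26 to 0.048, limma adjusted p = 0.259).

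Clpp, the peptidase of ClpXP, ran from 1180 to 1367 normalised reads in Rptor controls and from 1239 to 1324 in deficient lungs, the latter inside the range of the former. Clpx, its unfoldase, ran from 1450 to 1608 in controls and from 1464 to 1647 in deficient lungs. The log2 fold changes were -0.019 (95% interval -0.19 to 0.15) and 0.045 (95% interval -0.12 to 0.20). Neither subunit passed the test, with limma adjusted p = 0.868 for Clpp and 0.654 for Clpx.

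Of the proteases of the inner membrane, Afg3l2, which faces the matrix, ran from 2640 to 2766 normalised reads in Rptor controls and from 2562 to 2718 in deficient lungs (log2 fold change -0.037, limma adjusted p = 0.615). Yme1l1, which faces the intermembrane space, had 5694, 5667 and 5424 in controls and 5073, 5277 and 5365 in deficient lungs. The Yme1l1 groups did not overlap, but the log2 fold change of -0.095 did not pass the test (95% interval -0.21 to 0.018, limma adjusted p = 0.171). With Yme1l1, 5 members had all deficient values below all controls, against 26.0% of all genes tested in this line.

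**Figure D1:**
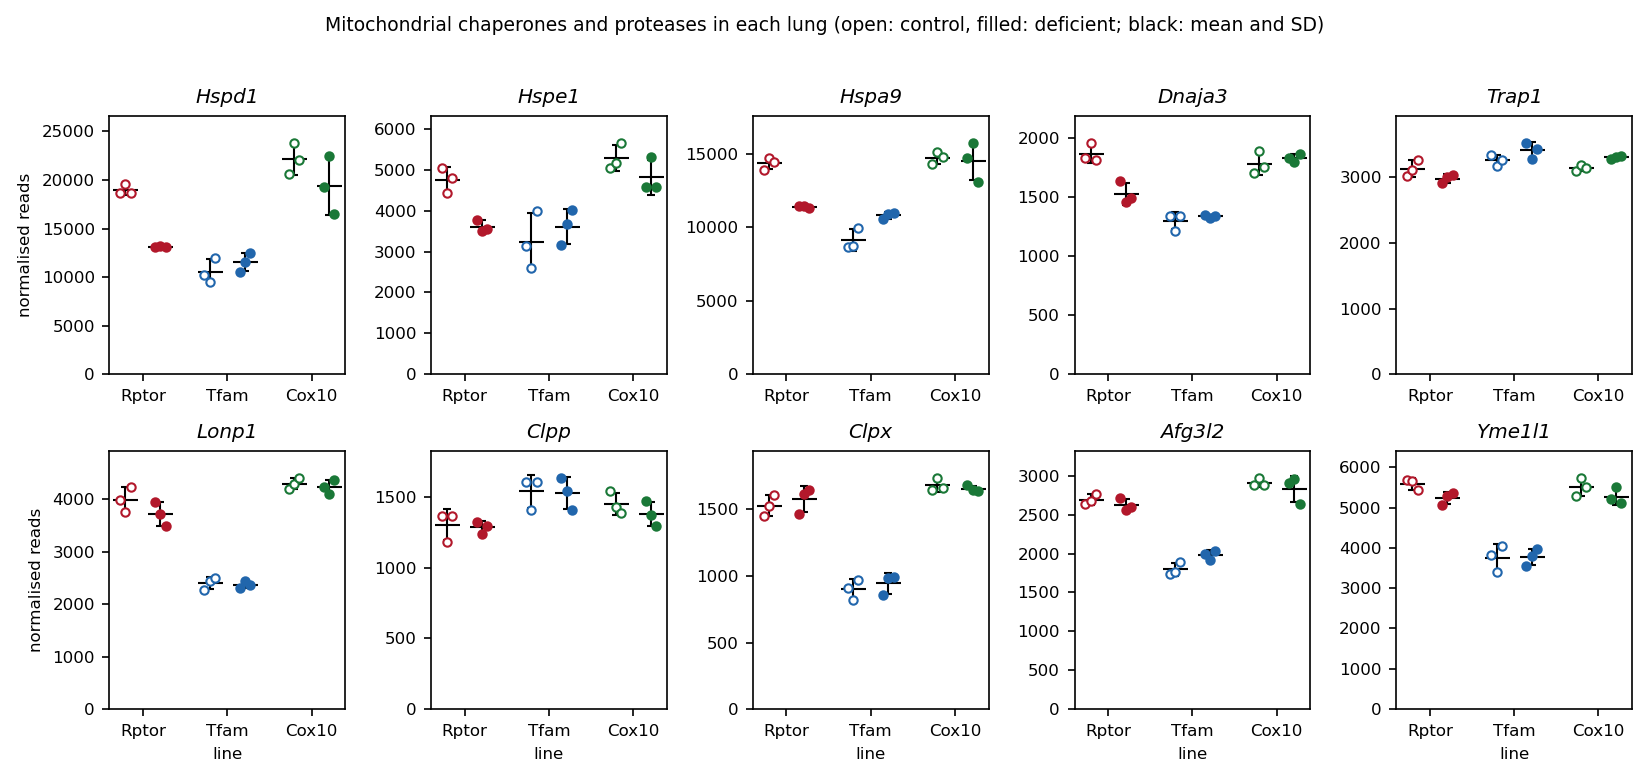
Normalised reads (vertical axis, from 0, own scale for each gene) of the 10 members in each of the 18 lungs, by line, with open points for controls, filled points for deficient lungs and black marks for the mean and SD of 3 lungs. Hspd1, Hspe1, Hspa9 and Dnaja3 are lower in all 3 Rptor-deficient lungs than in the Rptor controls. Each line was scaled in its own table.

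In Tfam-deficient lungs no member passed the test, against 4.66% of the 15050 genes tested in this line by limma. At an unadjusted p below 0.05 there were 2 members, Hspa9 and Afg3l2, both with higher values, against 17.4% of all genes. The median log2 fold change over the 10 members was 0.067, against 0.00095 over all genes. The epithelial and smooth muscle marker sums were lower in these lungs as given above, and their part in the members' values was not tested.

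Hspa9 had 8674, 8689 and 9966 normalised reads in Tfam controls and 10549, 10888 and 10970 in deficient lungs. All deficient lungs were above all controls, and the log2 fold change was 0.25 (SE 0.066, 95% interval 0.10 to 0.40). With limma adjusted p = 0.0632 it missed the threshold. The adjusted p was 0.0445 when all 18 lungs were fitted together and 0.00628 without control 3, and it ranged up to 0.246 when another lung was left out.

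Hspd1 had 10209, 9489 and 12002 normalised reads in Tfam controls and 10567, 11591 and 12451 in deficient lungs. Hspe1 had 3144, 2596 and 4000 in controls and 3153, 3672 and 4017 in deficient lungs. For both genes the groups overlapped, and control 3 lay close to the highest deficient lung. The log2 fold changes were 0.13 for Hspd1 (95% interval -0.070 to 0.33, limma adjusted p = 0.509) and 0.17 for Hspe1 (95% interval -0.13 to 0.47, limma adjusted p = 0.571).

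Afg3l2 had 1737, 1763 and 1895 normalised reads in Tfam controls and 1994, 1916 and 2037 in deficient lungs, with no overlap between groups (log2 fold change 0.14, limma adjusted p = 0.252). Hspa9 and Afg3l2 were the 2 members with all deficient lungs above all controls, against 10.9% of all genes in this line. Dnaja3, Trap1, Lonp1, Clpp, Clpx and Yme1l1 overlapped between groups and had log2 fold changes from -0.020 for Lonp1 to 0.068 for Clpx. Of these, Lonp1, a protease often taken as a marker of mitochondrial stress, had 2268, 2435 and 2502 in controls and 2301, 2433 and 2367 in deficient lungs. Its 95% interval ran from -0.15 to 0.11 on the log2 scale.

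In Cox10-deficient lungs no member passed the limma test, against 0.475% of the 14934 genes tested in this line, and none had an unadjusted p below 0.05, against 13.0% of all genes. The median log2 fold change over the members was -0.033, against 0.0014 over all genes. The range of the epithelial marker sum given above reached lower in these lungs than in their controls. The 10 epithelial markers had a median log2 fold change of -0.44 here, with 8 at an unadjusted p below 0.05. The part of this shift in the members' values was not tested. Hspd1 had 20583, 23770 and 22009 normalised reads in controls and 19273, 22447 and 16500 in deficient lungs. The groups overlapped through deficient lung 2, and the log2 fold change was -0.20 (95% interval -0.46 to 0.060, limma adjusted p = 0.479). Hspe1 had 5051, 5166 and 5650 in controls and 4580, 5305 and 4573 in deficient lungs, again with deficient lung 2 inside the control range (log2 fold change -0.14, limma adjusted p = 0.465).

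Hspa9 ran from 14303 to 15117 normalised reads in Cox10 controls and from 13083 to 15690 in deficient lungs, on both sides of the controls. Its log2 fold change was -0.027 (95% interval -0.19 to 0.14). Trap1 had 3098, 3184 and 3137 in controls and 3286, 3314 and 3325 in deficient lungs. It was the 1 member with all deficient lungs above all controls, against 10.6% of all genes, at a log2 fold change of 0.076 (95% interval -0.019 to 0.17, limma adjusted p = 0.468). The 5 proteases had log2 fold changes from -0.076 for Clpp to -0.022 for Clpx.

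**Figure D2:**
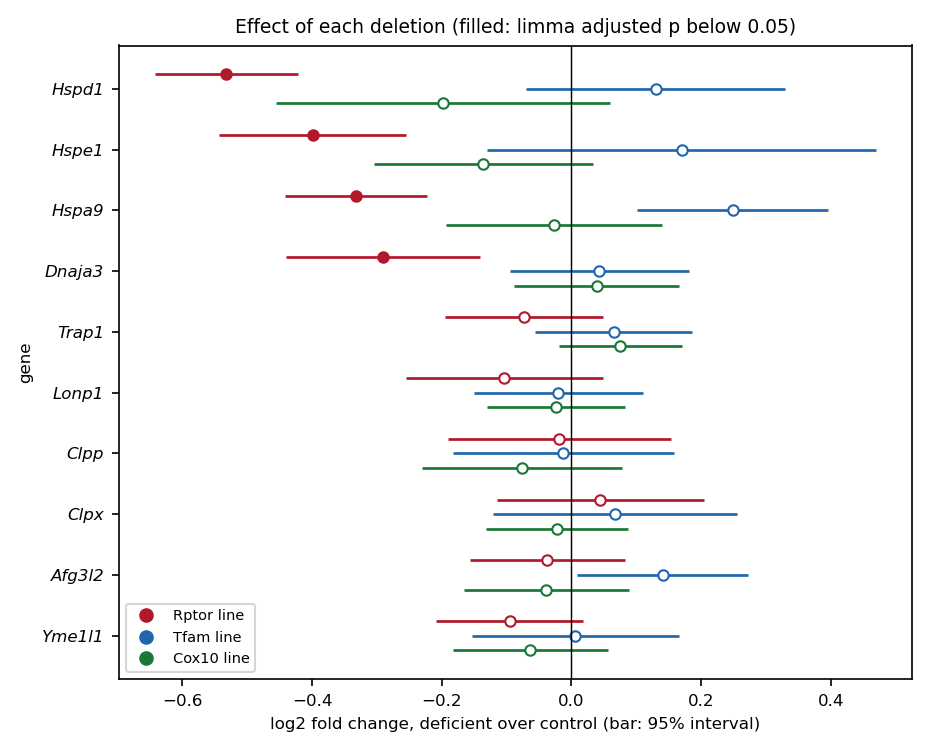
Log2 fold change of deficient over control lungs for each member, coloured by line, with 95% intervals from limma on 3 against 3 lungs. Filled points passed at an adjusted p below 0.05, and these are Hspd1 (-0.53), Hspe1 (-0.40), Hspa9 (-0.33) and Dnaja3 (-0.29) in the Rptor line.

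Whether the effects differed between lines was tested in a limma model of all 18 lungs on the 14548 genes tested in every line. A line cannot be told apart from its own table and controls, and control levels differed. Hspd1 averaged 10567 normalised reads in Tfam controls, against 18969 in Rptor and 22121 in Cox10 controls. Hspa9 averaged 9110, against 14329 and 14721, and Atf5 2181, against 954 and 976, while Trap1 averaged 3261, against 3135 and 3140. The part of these differences in the contrasts was not tested. Between the Rptor and Tfam lines, 4 members differed, all with the more negative effect in the Rptor line, against 11.2% of all genes in either direction and 6.35% in that direction. The difference of log2 fold changes was -0.66 for Hspd1 (limma adjusted p = 0.00615), -0.58 for Hspa9 (limma adjusted p = 0.000742), -0.57 for Hspe1 (limma adjusted p = 0.0362) and -0.33 for Dnaja3 (limma adjusted p = 0.0164). For Hspd1, Hspe1 and Hspa9 the gap adds the fall in the Rptor line to positive values in the Tfam line that did not themselves pass. The call for Hspe1 was lost without Rptor control 1 or 3, Rptor-deficient lung 2 or 3, Tfam control 1 or 2, or Tfam-deficient lung 2 or 3 (adjusted p up to 0.0996), and the calls for Hspe1 and Dnaja3 were both lost without Tfam control 2 (adjusted p = 0.0972 and 0.0521).

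Between the Rptor and Cox10 lines, 2 members differed, both more negative in the Rptor line, against 7.49% of all genes in either direction and 4.21% in that direction. These were Dnaja3, with a difference of -0.33 (limma adjusted p = 0.0211), and Hspa9, with a difference of -0.31 (limma adjusted p = 0.0477). The call for Hspa9 was lost in each fit that left out a lung other than Cox10-deficient lung 3 (adjusted p up to 0.121), and that for Dnaja3 in 3, without Rptor control 2, Cox10 control 1 or Cox10 control 3. For Hspd1 and Hspe1 the differences of -0.33 (95% interval -0.63 to -0.043, limma adjusted p = 0.155) and -0.26 (95% interval -0.61 to 0.087, limma adjusted p = 0.367) did not pass. Without Cox10-deficient lung 3, which had the lowest Hspd1 of its group, the Hspd1 difference was -0.45 (limma adjusted p = 0.0262).

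Between the Tfam and Cox10 lines no member differed at the threshold by limma, against 0.0550% of all genes. At an unadjusted p below 0.05 there were 3 members, against 4.56% of all genes. These were Hspd1, Hspa9 and Afg3l2, with differences of 0.33 (95% interval 0.036 to 0.62), 0.28 (95% interval 0.086 to 0.47) and 0.18 (95% interval 0.024 to 0.34). None of the 5 proteases passed in any of the 3 contrasts between lines. The differences ran from -0.10 to 0.090 for Lonp1, Clpp, Clpx and Yme1l1 and from -0.18 to 0.18 for Afg3l2.

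**Figure D3:**
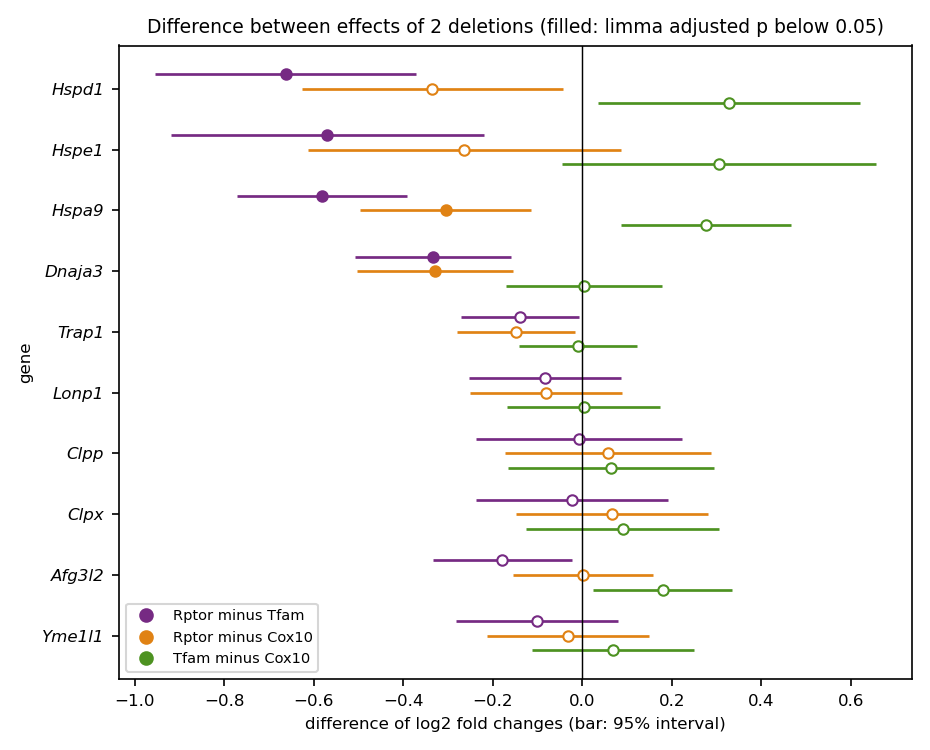
Difference between the log2 fold changes of 2 lines for each member, with 95% intervals from a limma model of all 18 lungs. Filled points passed at an adjusted p below 0.05, and these are Hspd1, Hspe1, Hspa9 and Dnaja3 for Rptor minus Tfam and Hspa9 and Dnaja3 for Rptor minus Cox10.

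Hspd1 and Hspe1 encode the parts of 1 chamber, and their ratio was computed in each lung. The ratio of Hspd1 to Hspe1 normalised reads ran from 3.00 in a Tfam control to 4.601 in a Cox10 control. It was 3.997 ± 0.379 (SD, n = 3) in Rptor controls and 3.64 ± 0.167 in Rptor-deficient lungs, ranges that overlap. As deviations from the 6 group means on the log2 scale, the genes correlated across 18 lungs with Pearson r = 0.72 (exact permutation within groups, two-sided p = 0.0151, adjusted over 3 pairs 0.0453, or 0.0459 with Rptor lungs of the same number permuted together) and Spearman rho = 0.57 (exact permutation p = 0.0735, adjusted 0.221). Without the 2 lungs farthest from the median of Hspd1, Cox10-deficient lungs 2 and 3, r was 0.78 and rho was 0.47. The lung left in that group is its own group mean and adds nothing to r.

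The relation did not hold within every line. In the Tfam line r was 0.99 (exact permutation p = 0.0278, the smallest that 36 arrangements gave), in the Cox10 line 0.68 (exact permutation p = 0.306) and in the Rptor line -0.84 (exact permutation p = 0.0833). The Rptor lungs spanned a narrow range in Hspd1. Hspa9 with Dnaja3 (r = 0.20, rho = 0.32, exact permutation p = 0.534 and 0.278, adjusted 0.801 and 0.417) and Clpp with Clpx (r = -0.0029, rho = -0.082, exact permutation p = 0.993 and 0.793, the same after adjustment) showed no detectable relation over the 18 lungs. Without the 2 farthest lungs r was 0.33 and -0.43, and within lines it ran from -0.075 to 0.48 and from -0.17 to 0.13.

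**Figure D4:**
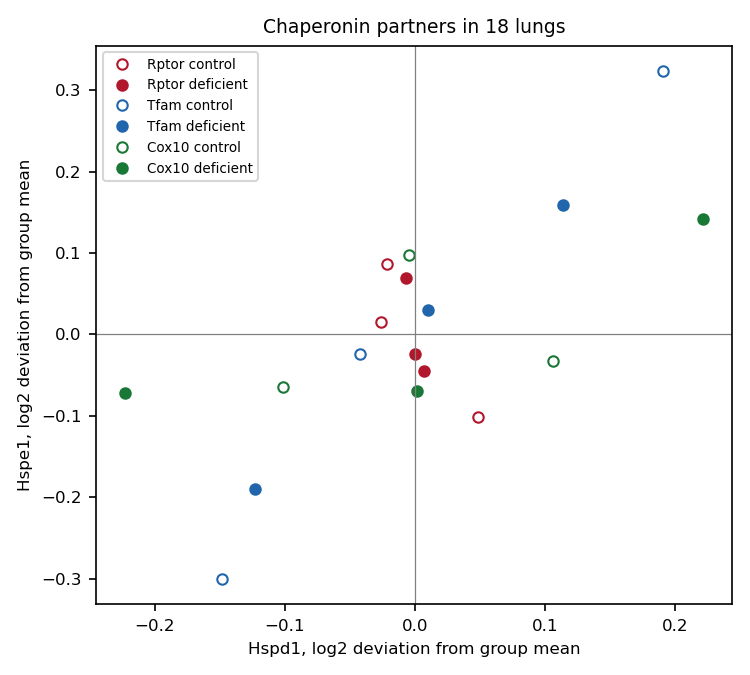
Deviation of Hspe1 from its group mean (vertical axis, log2) against that of Hspd1 (horizontal axis, log2) in 18 lungs, coloured by line, with open points for controls. The pooled Pearson r is 0.72, the Tfam lungs lie along a rising line, and the Rptor lungs sit close to 0 in Hspd1 with a falling order.

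Of 9 genes listed as regulators of the response, 1 fell and 1 rose in Rptor-deficient lungs, 1 rose in Tfam-deficient lungs and none passed in Cox10-deficient lungs, where 2 had an unadjusted p below 0.05. The background over every gene tested was 34.8% passing in either direction for Rptor, 4.66% for Tfam and 0.475% for Cox10, with 13.0% at an unadjusted p below 0.05 for Cox10. The Tfam count was 2 without Tfam control 3, with Ddit3 added. Atf5 had 1949, 2388 and 2207 normalised reads in Tfam controls and 5367, 5602 and 4882 in deficient lungs. Every deficient lung was far above every control, and limma gave a log2 fold change of 1.28 ± 0.081 (SE) with an adjusted p of 8.97e-06. Atf5 did not pass in the Rptor line (log2 fold change -0.098, adjusted p = 0.367) or the Cox10 line (log2 fold change 0.18, adjusted p = 0.513), both by limma. The difference of its effects was 1.10 for Tfam minus Cox10 (limma adjusted p = 0.00489) and -1.38 for Rptor minus Tfam (limma adjusted p = 1.02e-05). Atf5 was thus higher in the Tfam-deficient lungs in which no member passed.

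Atf4, the central factor of the integrated stress response, had 5343, 5442 and 5471 normalised reads in Rptor controls and 3162, 4172 and 4038 in deficient lungs, and limma gave a log2 fold change of -0.53 ± 0.097 (SE) with an adjusted p of 0.00424. In the Tfam line Atf4 had 5393, 5259 and 5471 in controls and 6365, 6149 and 5879 in deficient lungs, with no overlap, but the log2 fold change of 0.19 did not pass (limma adjusted p = 0.0860). The Atf4 effect differed between the Rptor and Tfam lines by -0.72 (limma adjusted p = 0.000636) and between the Rptor and Cox10 lines by -0.55 (limma adjusted p = 0.00462). Ddit3, which encodes CHOP, rose in Rptor-deficient lungs from 224 ± 25.3 to 304 ± 47.0 normalised reads (SD, n = 3; log2 fold change 0.44, limma adjusted p = 0.0417). That call was lost with the replicate number as a block (adjusted p = 0.0511) and without deficient lung 1 (log2 fold change 0.31, adjusted p = 0.0870). It was lost as well without control 1, control 2 or deficient lung 2 (adjusted p = 0.130, 0.111 and 0.0638). In the Tfam line Ddit3 had a log2 fold change of 0.34 (95% interval 0.040 to 0.64, limma adjusted p = 0.220) with groups that overlapped, and without control 3 it passed as higher (log2 fold change 0.49, adjusted p = 0.0295). In the Cox10 line its log2 fold change was 0.21 (95% interval 0.0024 to 0.42, limma adjusted p = 0.379), with all deficient lungs above all controls. Hsf1, the heat shock factor, had a log2 fold change of -0.21 in the Rptor line (limma adjusted p = 0.0739) and passed in no line. In the Rptor line it passed as lower once replicate numbers entered as a block (adjusted p = 0.0412), as it did with all 18 lungs fitted together (adjusted p = 0.0261) and without deficient lung 1 (adjusted p = 0.0110). The other 5, Cebpb, Dele1, Eif2ak1, Sirt3 and Sirt7, passed in no line, with log2 fold changes from -0.15 to 0.22, though Eif2ak1 passed as lower in the Rptor line with all 18 lungs fitted together (log2 fold change -0.15, adjusted p = 0.0460).

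Genes of related functions are given for comparison from lists that were chosen with earlier results of these data known, and their counts in the Rptor line stand beside the 18.2% of all genes that passed as lower there. In Rptor-deficient lungs, 4 of 13 other mitochondrial chaperones and cofactors fell and none rose, with a median log2 fold change of -0.13. Among them were Dnajc15 at -0.45, Clpb, a disaggregase, at -0.35 and Grpel1, the nucleotide exchange factor of Hspa9, at -0.26. The call for Grpel1 was lost without control 1, 2 or 3 (limma adjusted p up to 0.0663). Of 15 other mitochondrial proteases and peptidases, 2 fell, the rhomboid protease Parl at -0.34 and the mitochondrial intermediate peptidase Mipep at -0.27, and the median was -0.10. Mipep was called at a limma adjusted p of 0.0414, and the call was lost without any 1 of the controls, deficient lung 2 or deficient lung 3. Of 76 mitochondrial ribosomal proteins, 35 fell and none rose, with a median of -0.21 and the largest falls in Mrpl16 at -0.67 and Mrpl36 at -0.57. The count was 23, 21 and 21 without control 1, 2 or 3. In the Tfam and Cox10 lines no gene of these 3 lists passed in either direction, while 1, 0 and 4 of them, in the order of the lists, had an unadjusted p below 0.05 in the Tfam line and 1, 2 and 6 in the Cox10 line, against 17.4% and 13.0% of all genes.

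Chaperones of other compartments fell in Rptor-deficient lungs as well. As for the members, the epithelial marker sum was lower in the same lungs (mean 18704 against 43077 in controls). The mesenchymal sum, mostly collagen reads, was higher (387258 against 196526). The part of these shifts in the lists was not tested. In the endoplasmic reticulum list 12 of 15 fell and none rose, with a median log2 fold change of -0.32, led by Sdf2l1 at -0.66, Hyou1 at -0.52 and Dnajc3 at -0.45. The count was 7 without control 1, control 2 or deficient lung 2. In the cytosolic list 13 of 19 fell and none rose, with a median of -0.24, led by Hsph1 at -0.84, Hsp90aa1 at -0.51 and Hspa8 at -0.50. The median of the 5 mitochondrial chaperones, -0.33, was close to that of the endoplasmic reticulum list. In the Tfam line 2 cytosolic chaperones fell, Hsph1 at -0.28 and Stip1 at -0.22, and no chaperone of the endoplasmic reticulum passed, with 6 of 15 at an unadjusted p below 0.05, against 4.66% of all genes called and 17.4% at that unadjusted p. The cytosolic count was 0 without control 1 or any deficient lung and 1 without control 2. In the Cox10 line none passed in either list, with 2 in each at an unadjusted p below 0.05, against 13.0% of all genes.

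Targets of Atf4 in the integrated stress response took another course from the members in the Tfam line. There 14 of 17 rose and none fell, against 4.66% of all genes called in either direction, with a median log2 fold change of 0.56, led by Chac1, a glutathione-degrading enzyme, at 3.47, and the cationic amino acid transporter Slc7a3 at 3.23. The stress cytokine Gdf15 (log2 fold change 3.04), with a mean of 3.03 normalised reads in controls and 32.6 in deficient lungs, passed the filter on low values only through the deficient lungs and therefore had to differ. It was tested in this line alone, and leaving it out gives 13 of 16. Over the same lungs the 10 members had a median of 0.067 with none called. The count of 14 was 8 without control 1 and 9 without deficient lung 1 or 2. In the Cox10 line 2 of 16 rose, Slc7a3 at 1.57 and Trib3 at 1.24, against 0.475% of all genes called, and the count was 0 without any 1 of the controls or deficient lung 2 and 5 without deficient lung 3. In the Rptor line 5 of 16 fell, led by the folate enzyme Mthfd2 at -0.998, the serine synthesis enzyme Psat1 at -0.94 and asparagine synthetase, Asns, at -0.75, and 3 rose, against 16.6% of all genes that passed as higher there. Those 3, named after their values were seen, were Atf3 at 0.60, Slc7a3 at 0.58 and Pycr1 at 0.29. The count was 0 without any 1 of the controls, deficient lung 1 or deficient lung 2, and 1 without deficient lung 3.

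**Figure D5:**
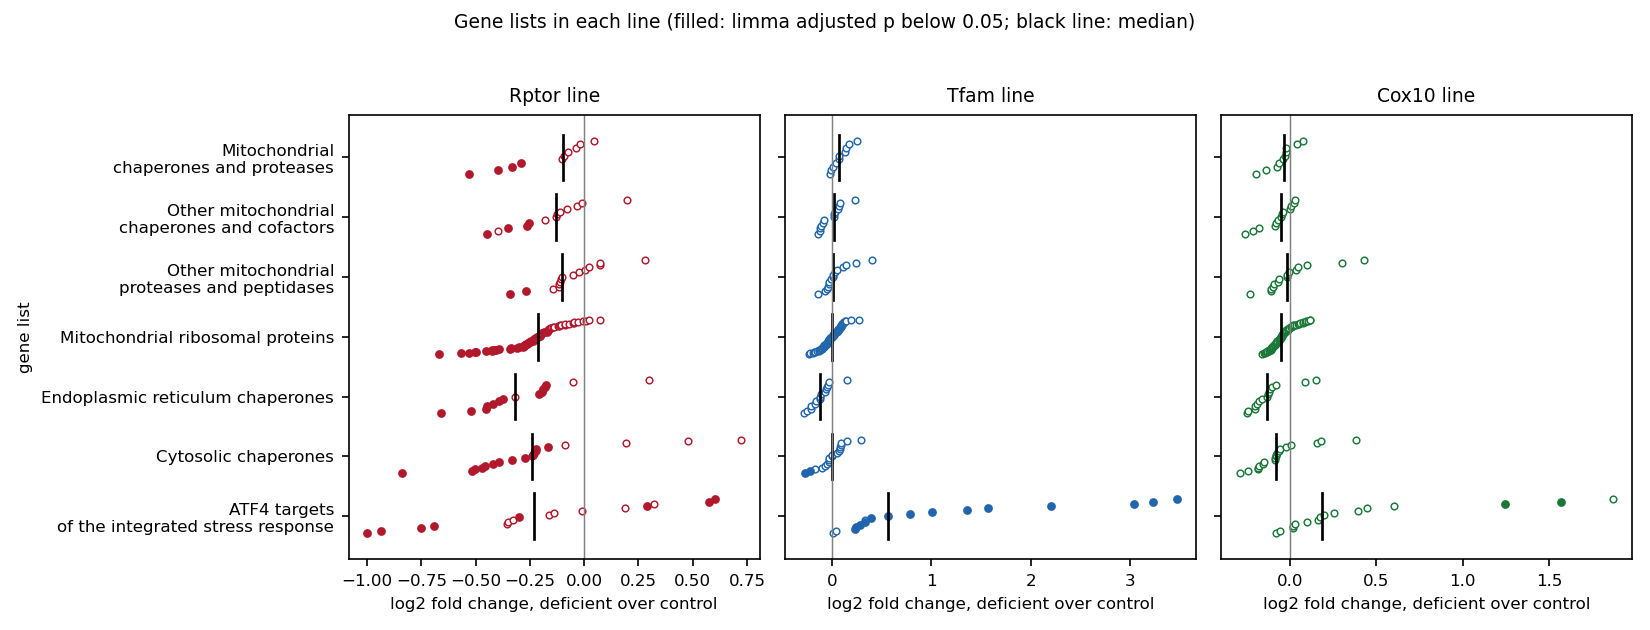
Log2 fold change of deficient over control lungs (horizontal axis, scale differs between panels) for each gene tested of 7 lists in the 3 lines, with filled points at a limma adjusted p below 0.05 and a black line at the median. Filled points lie to the left in most lists of the Rptor panel, and 14 Atf4 targets lie to the right in the Tfam panel, while no mitochondrial chaperone or protease is filled.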

How the data were processed

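For each of 18 lungs the authors deposited a normalised signal per gene, meaning read counts that had been divided by the size factor of each library, with a separate file for each line. The submitters' processing notes name Trim Galore, HISAT2, featureCounts, DESeq2 and mm10. The tables also hold the authors' deposited log2 fold changes, p-values and adjusted p-values, which were not used. Groups and replicate numbers came from the sample titles. The study pooled mutants of several litters for its statistics, but the litter of each of these lungs is not given in the sources used here, and p-values measure the spread between these lungs.

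Of 23420 rows in each file, 4 were left out because their symbols were repeated. Genes with a value of at least 10 in at least 3 of 6 samples were tested on log2(value + 1) with limma 3.58.1 (R 4.3.3, mean-variance trend, genotype as the only term, two-sided) and Benjamini-Hochberg adjustment over all genes tested. Every fold change refers to log2(value + 1), and so the change of low genes is understated. Differences between lines came from a fit of all 18 samples with 6 groups. Exact permutation tests within groups were run in Python 3.11.15. The limma and permutation scripts were tested on simulated data.

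Deviations of lungs with the same replicate number correlated at 0.221, 0.330 and 0.259 in the Rptor line, all over 0.1, so the numbers were taken to pair those lungs. The main fit did not use this pairing. With the replicate number as a block, the 4 called members of the Rptor line kept their calls. Of the regulators there, Ddit3 lost its call (limma adjusted p = 0.0511) and Hsf1 passed as lower (limma adjusted p = 0.0412). The numbers were not taken to pair lungs in the Tfam (-0.312, -0.207, 0.151) and Cox10 lines (0.447, 0.202, 0.0487).

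Members and lists were chosen with earlier results of these data known. Named were all members, all regulators, the targeted genes in their own line and, of each other list, up to 3 genes per line with the largest change past the threshold. Atf3, Slc7a3 and Pycr1 in the Rptor line were named outside this rule, after their values were seen. Dele1, Atp23 and Adgre1 were matched by synonym.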

Additional observations from a re-analysis of the deposited data

Results flagged for a closer look

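The effect on 4 members differed between lines by the test of the difference itself, in a limma model of all 18 lungs. The lines cannot be told apart from their own tables and controls, as given above. Between the Rptor and Tfam lines the difference of log2 fold changes was -0.66 (SE 0.14, adjusted p = 0.00615) for Hspd1, -0.57 (SE 0.17, adjusted p = 0.0362) for Hspe1, -0.58 (SE 0.090, adjusted p = 0.000742) for Hspa9 and -0.33 (SE 0.083, adjusted p = 0.0164) for Dnaja3. Between the Rptor and Cox10 lines it was -0.31 (SE 0.090, adjusted p = 0.0477) for Hspa9 and -0.33 (SE 0.083, adjusted p = 0.0211) for Dnaja3. In each case the value in the Rptor line was the more negative, with 3 of 3 Rptor-deficient lungs below all Rptor controls. Over all genes, 11.2% differed between the Rptor and Tfam lines and 7.49% between the Rptor and Cox10 lines. Of 12 fits without 1 lung, the Hspe1 difference passed in 4, and the Hspa9 difference between the Rptor and Cox10 lines in 1.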

How the results depend on the processing

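In the Rptor line, Hspd1, Hspe1, Hspa9 and Dnaja3 kept their direction and their call under each of 8 alternatives of scaling, filter, pseudocount, model or covariate and in all 6 fits without 1 lung (count 4 to 4). At an adjusted p below 0.01 Dnaja3 was lost. In the Tfam line the count of 0 became 1, Hspa9, with the replicate number as a block (adjusted p = 0.0348) and with all 18 lungs in 1 fit (adjusted p = 0.0445), and ranged from 0 to 1 without 1 lung. The replicate numbers were not taken to pair the Tfam lungs. In the Cox10 line the count stayed 0 to 0. The replicate block changed no other call of a member. The Rptor minus Tfam count of 4 became 3 with Xist as a covariate, where Hspe1 was lost (adjusted p = 0.0520), became 2 at an adjusted p below 0.01 and ranged from 2 to 4 without 1 lung. The Rptor minus Cox10 count of 2 became 1 with no filter and 1 with Xist as a covariate, became 0 at an adjusted p below 0.01, and ranged from 0 to 3, while Tfam minus Cox10 stayed 0 to 0. Xist, an RNA of the inactive X, and the permutation of Rptor lungs as pairs were added after seeing the data. Values near 0 changed sign for Clpp (Rptor line 0.017, Rptor minus Tfam 0.028) and Yme1l1 (Tfam line -0.030) with Xist, for Afg3l2 with TMM factors (Rptor minus Cox10 -0.0034) and for Clpp with Clpx when scaled to totals (r = 0.023). The cause was not tested. Without 1 lung, signs changed for values that were not called. In the Rptor line these ran from -0.089 to 0.017 (Clpp), -0.12 to 0.033 (Sirt7) and -0.17 to 0.17 (Cebpb). In the Tfam line they ran from -0.077 to 0.047 (Clpp), -0.030 to 0.26 (Sirt3), -0.0034 to 0.068 (Dnaja3), -0.063 to 0.060 (Yme1l1) and -0.061 to 0.0098 (Lonp1). In the Cox10 line they ran from -0.013 to 0.060 (Atf4), -0.0065 to 0.091 (Dele1, listed as 0610009O20Rik), -0.037 to 1.4e-05 (Clpx), -0.093 to 0.0045 (Cebpb), -0.048 to 0.00053 (Lonp1), -0.087 to 0.044 (Hspa9) and -0.070 to 0.011 (Afg3l2). Differences ran from -0.077 to 0.059 (Clpp) and -0.094 to 0.042 (Clpx) for Rptor minus Tfam, from -0.048 to 0.033 (Afg3l2), -0.013 to 0.11 (Clpp) and -0.060 to 0.00038 (Yme1l1) for Rptor minus Cox10, and from -0.032 to 0.018 (Trap1), -0.038 to 0.033 (Lonp1), -0.042 to 0.036 (Dnaja3) and -0.0012 to 0.12 (Clpp) for Tfam minus Cox10. The other lists moved in count: in the Rptor line the endoplasmic reticulum chaperones ranged from 6 to 13 and the mitochondrial ribosomal proteins from 14 to 44, and in the Tfam line the Atf4 targets from 8 to 14. The planned edgeR and DESeq2 fits were not run: the deposited values were already divided by size factors, in steps of 0.978 to 1.02 a library, and were not taken as whole reads. In every library 100% of the values were close to whole multiples of its step, but no counts recovered by division were used. Depth limits no member, but 3 lungs a group limit the intervals.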
